A study of Homo sapiens with 12 samples.

Results

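The response of the lung cancer cell line H1650 to over-expression of the splicing factor SRSF2 was examined in 6 of the 12 libraries of the series. The members were set by their labels, but they and the gene lists were chosen with earlier results of these data known. The members are 3 libraries of H1650 cells over-expressing SRSF2, called SRSF2 libraries here, and 3 of H1650 cells labelled untreated. H1650 is an established human lung adenocarcinoma line. The titles of the control libraries carry the letters NC, which the labels do not explain, so whether the controls received an empty construct is not known. The labels give no construct, dose or time, and do not say whether replicates were separate cultures, so the spread behind each p-value is that of libraries and may be technical. Another 6 libraries, 3 untreated and 3 over-expressing SRSF2, come from the lung cancer line A549 and were used here only to share the estimate of spread and to show where the H1650 response differs. The RNA level of SRSF2 was not analysed here, so the stated over-expression was not checked.

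SRSF2 belongs to the SR proteins, which bind purine- and pyrimidine-containing enhancer motifs in exons through an RNA recognition motif and recruit the splicing machinery through a domain rich in serine and arginine. SR proteins also act in transcription elongation, in RNA export and in nonsense-mediated decay, the pathway that destroys transcripts with early stop codons. Epithelial cells detect abnormal nucleic acids through sensors such as RIG-I and MDA5, which lead through IRF and NF-kB transcription factors to antiviral genes and cytokines. Stress from unfolded proteins, growth factor signals and DNA damage feed the XBP1, AP-1 and p53 transcription factors, whose target genes are described in turn below.

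Total counts of the 6 H1650 libraries ran from 26818905 to 32079027, where 3 counts correspond to 0.112 and 0.0935 CPM (counts relative to the library total). Of 8 markers of lung epithelial cells, 6 had a row: EPCAM, KRT7, KRT8, KRT18, KRT19 and CDH1 were detected in every library, while NKX2-1 and NAPSA were not analysed here. Endothelial and erythroid markers were not analysed here. Of 7 leukocyte markers 2 had a row, ITGAM and CD14, which summed to between 0.463 and 0.611 CPM in untreated and between 0.718 and 1.39 CPM in SRSF2 libraries. Fibroblast and smooth muscle markers, of which 2 of 7 and 5 of 6 had a row, reached higher sums and are given beside the mesenchymal and actin genes. CPM values, apart from those of 3 counts above, are scaled to library totals corrected by TMM. This edgeR scaling levels a trimmed mean of the log ratios between libraries and takes most genes as unchanged. CPM values are given per library or as mean ± SD (n = 3). A gene "rose" or "fell" where edgeR's quasi-likelihood test gave an adjusted p under 0.05 over all genes tested. A change of "more than 1.5-fold" passed the stricter edgeR test against that fold. Log2 fold changes of SRSF2 against untreated cells stand in parentheses after gene names, and their standard errors (SE) were worked back from the test statistic.

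Over-expression of SRSF2 went with changes in most of the transcriptome of H1650. Of 15991 genes tested, 9957 were called (62.3%): 4954 (31.0%) rose and 5003 (31.3%) fell, and the large changes were mostly rises. By more than 1.5-fold 1386 genes rose (8.67%) and 845 fell (5.28%), and by 4-fold or more 344 rose and 33 fell. With libraries scaled to their plain totals the rises by more than 1.5-fold made up 51.4% of such calls in place of 62.1%, with 1199 risen and 1134 fallen. The 3 SRSF2 libraries lay above all untreated libraries in 5127 genes (32.1%) and below them in 5220 (32.6%). The largest rises by the rule for named genes were in CNN1, FA2H, ARC and RSAD2, and the largest falls in APBA1, SLITRK6 and LMO1. Unless stated otherwise, groups of genes are read against these shares, and against a median log2 fold change of 0.00 over all genes tested.

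**Figure D1:**
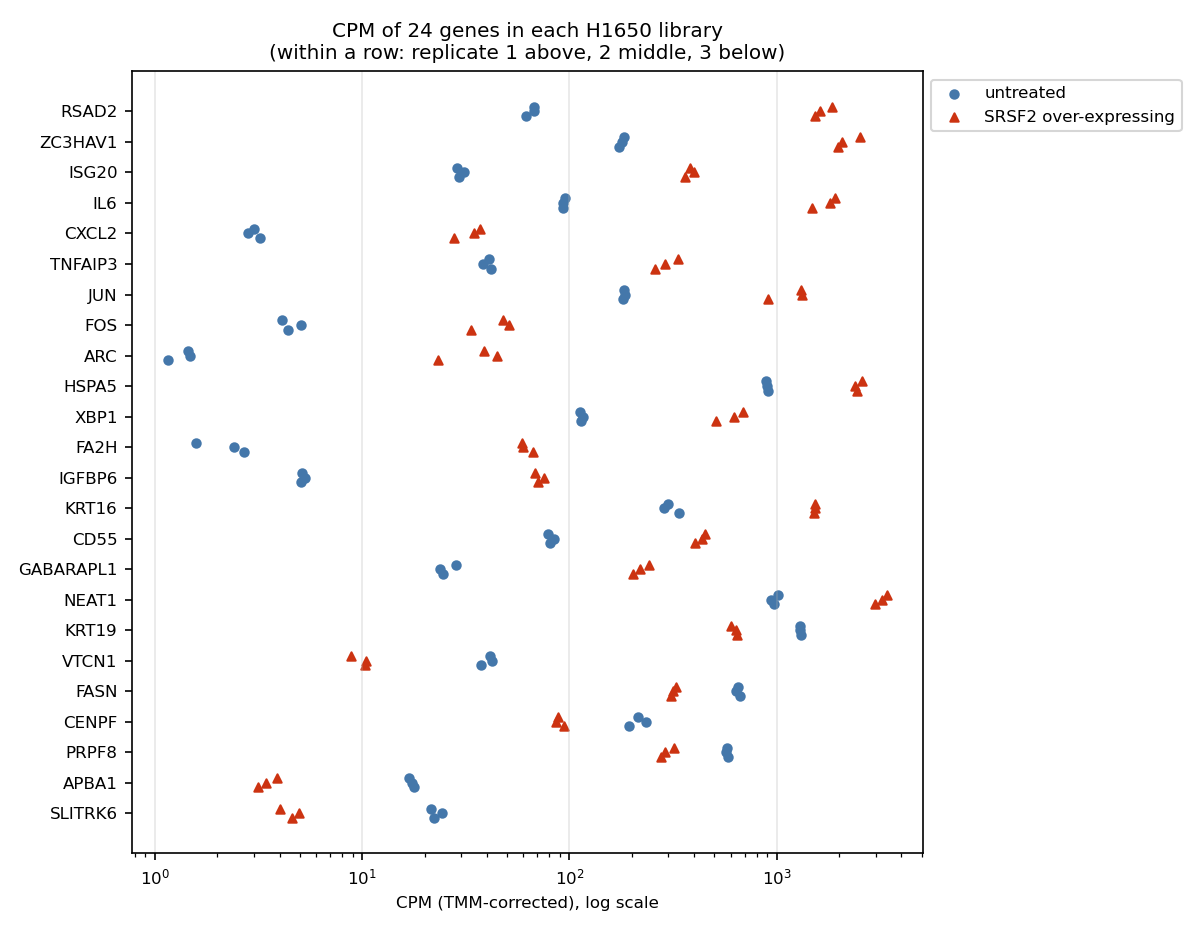
CPM of 24 genes in each of the 6 H1650 libraries on a log axis, untreated as blue circles and SRSF2 as red triangles, with replicate 1 above and replicate 3 below within a row. The groups do not overlap for any of these genes, and replicate 3 of the SRSF2 group is clearly the lowest of its group for ARC, FOS and JUN.

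Genes that sense foreign or misplaced nucleic acids rose in most cases. Of 16 sensors and adaptors tested, 11 rose and 3 fell, and 10 rose by more than 1.5-fold, with a median log2 fold change of 1.23. ZC3HAV1 encodes the zinc finger protein ZAP, which binds CpG-rich viral RNA and recruits RNA decay (ENSG00000105939, GRCh38 chromosome 7, 139043520 to 139109719, minus strand). It stood at 184, 179.9 and 173 CPM in the untreated and 2523, 2072 and 1968 CPM in the SRSF2 libraries. Every SRSF2 library was more than 10 times every untreated library, and the mean went from 179 ± 5.62 to 2187 ± 295 CPM (log2 fold change 3.61, SE 0.06, edgeR adjusted p = 2.50e-32). The double-stranded RNA sensor IFIH1 (MDA5) was at 192, 199 and 193 CPM in the untreated and 1106, 1065 and 1004 CPM in the SRSF2 libraries, again without overlap (log2 fold change 2.44, SE 0.04). RIGI, which encodes RIG-I, went from 254 ± 2.52 to 1182 ± 35.3 CPM and OASL, an inhibitor of DNA sensing that enhances RIG-I, from 242 ± 4.58 to 3104 ± 105 CPM. The sensors IFI16 (1.54), DHX58 (1.91), TLR3 (1.09) and the adaptor STING1 (1.37) rose as well. The RIG-I adaptor MAVS (-0.54), the kinase EIF2AK2 (-0.22) and the editing enzyme ADAR (-0.11) fell.

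The receptors and transcription factors of interferon signalling had smaller median changes. Of 6 receptor genes tested 2 rose and 2 fell, but 1 rose without untreated replicate 1, without untreated replicate 3 or without SRSF2 replicate 3. IFNAR1 (-0.30) and IFNAR2 (-0.48), the chains of the type I interferon receptor, fell, and IFNLR1 (0.39) of the type III receptor rose. Interferon ligand genes were not analysed here. Among 21 IRF, STAT and JAK genes with their feedback regulators, 12 rose and 4 fell, 4 rose by more than 1.5-fold and the median was 0.27. IRF1, an early activator of interferon and antigen presentation genes, was at 46.7, 46.8 and 47.7 CPM in the untreated and 136, 149.8 and 157 CPM in the SRSF2 libraries. All SRSF2 libraries were above all untreated ones (log2 fold change 1.65, SE 0.05, edgeR adjusted p = 5.37e-24). IRF1-AS1 overlaps IRF1 on the other strand, at 13.2 and 17.5 CPM in the 2 groups. The negative regulators USP18 (1.32) and SOCS3 (1.45) and the kinase JAK2 (0.79) rose, the signal transducer STAT2 (0.38) rose less, and IRF7 fell from 1.105 ± 0.261 to 0.524 ± 0.127 CPM.

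Nearly all antiviral effectors were higher in the SRSF2 libraries. Of 32 tested, 30 rose, 20 of them by more than 1.5-fold, 1 fell (GBP2, -0.37), and the median was 0.78. RSAD2 (viperin), which makes a chain-terminating nucleotide, was at 67.5, 67.2 and 61.5 CPM in the untreated and 1846, 1621 and 1532 CPM in the SRSF2 libraries, without overlap (log2 fold change 4.67, SE 0.06). CMPK2 overlaps RSAD2 on the opposite strand and went from 66.2 ± 1.93 to 347 ± 18.4 CPM. The annotated spans of these genes share 830 bases. How strand was used in counting is not stated, so reads from the stretch that such a pair shares cannot be told apart. ISG20, an exonuclease that degrades viral RNA (ENSG00000172183, GRCh38 chromosome 15, 88636153 to 88656483, plus strand), was at 28.6, 31.1 and 29.3 CPM in the untreated and 381, 397 and 361 CPM in the SRSF2 libraries. The SRSF2 libraries were more than 10 times the untreated ones (log2 fold change 3.68, SE 0.05, edgeR adjusted p = 1.70e-34). HERC5, the ligase that attaches ISG15 to new proteins, rose from 122 ± 6.23 to 831 ± 28.5 CPM and ISG15 itself from 559 ± 21.3 to 2160.0 ± 97.8 CPM. MX1, already abundant in untreated cells, rose from 1522 ± 40.1 to 2386 ± 59.5 CPM (0.65), and IFI6 (0.58) rose as well.

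The interferon-stimulated response element, the site bound by IRF and STAT complexes, was searched in RefSeq promoters as TTTC, any 2 bases and TTTC again, on both strands of the 250 bases before each start site (GRCh38.p14, 11242 of the 15991 genes matched by symbol). It is shown for the 3 eligible named genes with the largest rise, at 20 CPM or more in SRSF2 libraries, that hold it. Not all chromosomes were eligible for these windows, so a named gene with a larger rise may hold the letters and not be shown. Matching letters are in capitals and each window of 80 bases is read 5′ to 3′ on the strand of the gene.
ISG20, chr15:88638912-88638991, plus strand: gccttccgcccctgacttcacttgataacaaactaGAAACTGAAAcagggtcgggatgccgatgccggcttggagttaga
TNFSF10, chr3:172523573-172523652, minus strand: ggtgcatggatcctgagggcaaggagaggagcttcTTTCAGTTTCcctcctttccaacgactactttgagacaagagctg
HERC5, chr4:88457010-88457089, plus strand: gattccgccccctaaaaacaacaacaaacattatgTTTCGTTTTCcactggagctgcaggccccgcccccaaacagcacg
These letters occurred in 2.21% of the promoters of genes tested and in 4.32% of those of genes risen by more than 1.5-fold. They occurred in 5.56% of the 216 promoters of genes that rose by 4-fold or more. Among genes fallen by more than 1.5-fold the share was 1.14%. A match describes the letters of the window and is not evidence of binding. In all 13 motifs were searched, and the 4 shown here were chosen after their shares had been seen, so the shares are descriptions without a test.

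NF-kB signalling genes rose on both the activating and the inhibiting side. Of 28 subunits and regulators, 22 rose and 1 fell (2 on plain library totals, without SRSF2 replicate 1 or without untreated replicate 2, and 0 without untreated replicate 3), 12 rose by more than 1.5-fold and the median was 0.66. Among the subunits RELB (0.75), NFKB2 (0.72), RELA (0.66) and REL (0.56) rose. The largest rise was in TNFAIP3 (A20), a ubiquitin-editing enzyme that switches NF-kB off. It was at 41.1, 38.1 and 41.7 CPM in the untreated and 335, 290.2 and 258 CPM in the SRSF2 libraries, with no overlap of the groups (log2 fold change 2.87, SE 0.06, edgeR adjusted p = 7.85e-29). Further inhibitors rose as well: the deubiquitinase CYLD from 41.5 ± 2.01 to 154 ± 23.8 CPM, the A20 partner TNIP1 from 121 ± 1.24 to 342 ± 7.52 CPM and the inhibitor NFKBIA from 98.1 ± 2.29 to 218 ± 5.83 CPM. NFKBIZ, a nuclear co-activator of IL6 and other late targets, went from 9.89 ± 0.543 to 50.9 ± 3.18 CPM and the kinase RIPK2 from 86.4 ± 2.104 to 210.2 ± 20.8 CPM.

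Of 32 secreted cytokines and chemokines tested, 23 rose and 2 fell (1 without SRSF2 replicate 1 or without untreated replicate 2), 19 and 1 by more than 1.5-fold, with a median of 1.45. IL6, a cytokine of the acute phase (ENSG00000136244, GRCh38 chromosome 7, 22725884 to 22732002, plus strand), was at 95.2, 93.6 and 93.5 CPM in the untreated and 1901, 1817 and 1486 CPM in the SRSF2 libraries. Replicate 3 was the lowest of the SRSF2 libraries and still more than 15 times the highest untreated library (log2 fold change 4.20, SE 0.06). CXCL2, which attracts neutrophils, was at 3.02, 2.81 and 3.21 CPM in the untreated and 36.9, 34.5 and 27.7 CPM in the SRSF2 libraries, and the related CXCL8 (2.07), CXCL1 (2.07) and CXCL3 (2.32) rose too. CXCL1, CXCL2 and CXCL3 are alike in sequence and may share reads. TNFSF10 (TRAIL), a ligand that triggers death receptors, was at 6.33, 5.99 and 4.93 CPM in the untreated and 42.2, 41.1 and 49.9 CPM in the SRSF2 libraries. Here replicate 3 was the highest of the SRSF2 group (log2 fold change 2.95, SE 0.09). LIF, of the IL6 family, went from 5.91 ± 0.945 to 23.4 ± 2.78 CPM and CSF1, a growth factor for macrophages, from 39.6 ± 1.995 to 94.03 ± 7.41 CPM. The monocyte attractant CCL2 fell from 1.95 ± 0.379 to 0.684 ± 0.299 CPM, and IL7 (-0.62) fell as well. The receptors were mixed, with 13 of 29 risen and 10 fallen. IL15RA (1.36), IL6R (1.00) and LIFR (0.95) rose and IL1R1 (-0.96) fell.

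The kappaB site bound by NF-kB was searched in the same promoters as GGG, any 2 bases and TTTCC. Under the same rule it is shown for the 3 eligible named genes with the largest rise that hold it.
IL6, chr7:22727092-22727171, plus strand: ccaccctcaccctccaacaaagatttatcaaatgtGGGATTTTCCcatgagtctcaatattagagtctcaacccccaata
CXCL2, chr4:74099229-74099308, minus strand: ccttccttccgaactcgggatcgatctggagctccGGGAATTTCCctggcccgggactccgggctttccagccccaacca
TNFAIP3, chr6:137867169-137867248, plus strand: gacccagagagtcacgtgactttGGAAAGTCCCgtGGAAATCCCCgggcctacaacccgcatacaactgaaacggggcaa
The TNFAIP3 window holds 2 matches. The letters occurred in 1.89% of promoters of genes tested, in 2.91% of genes risen by more than 1.5-fold, in 6.48% of the 216 matched genes that rose by 4-fold or more, and in 0.65% of genes fallen by more than 1.5-fold.

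Class I antigen presentation, which displays peptides of the cell to T cells, rose as a group. Of 18 genes tested 17 rose and 0 fell (1 on plain library totals), and 10 rose by more than 1.5-fold, with a median of 0.82. B2M, which encodes their invariant light chain, was at 1201, 1234 and 1193 CPM in the untreated and 3305, 3387 and 3330.2 CPM in the SRSF2 libraries. The 3 SRSF2 values lay within a narrow range, far above the untreated ones (log2 fold change 1.47, SE 0.03, edgeR adjusted p = 4.64e-29). HLA-B and HLA-C rose (1.57 and 0.97), but these genes are alike in sequence and overlap in the annotation, so reads may be shared between them. HLA-E (1.44) and HLA-F (1.42), ligands of natural killer cell receptors, rose as well. Of 7 class II genes 3 rose, among them CD74 from 2.49 ± 0.1100 to 6.24 ± 2.06 CPM.

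Surface ligands that restrain or alert lymphocytes mostly rose. In this list 15 of 22 members rose and 4 fell, 13 and 2 by more than 1.5-fold, with a median of 1.13. CD55, which protects cells from complement, was at 78.5, 84.5 and 80.96 CPM in the untreated and 449, 438 and 405 CPM in the SRSF2 libraries, with no overlap (log2 fold change 2.41, SE 0.04). CD274 (PD-L1), the ligand of the inhibitory receptor PD-1, went from 22.97 ± 1.55 to 68.3 ± 1.65 CPM and its relative PDCD1LG2 (PD-L2) from 15.1 ± 1.88 to 48.6 ± 2.53 CPM. CD276 (B7-H3) rose from 326 ± 3.54 to 719 ± 11.7 CPM, and ULBP2, a stress ligand of the activating receptor NKG2D, from 31.2 ± 0.883 to 83.7 ± 4.69 CPM. VTCN1 (B7-H4), another inhibitory ligand, went the other way. It was at 41.5, 42.3 and 37.5 CPM in the untreated and 8.88, 10.4 and 10.3 CPM in the SRSF2 libraries, and each SRSF2 library was below 1 in 3 of the lowest untreated one (log2 fold change -2.03, SE 0.08, edgeR adjusted p = 3.84e-21). The complement regulator CD46 (-0.63), NECTIN1 (-0.66) and ICOSLG (-0.88) fell, while NECTIN2 (1.08) rose.

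AP-1 and other immediate-early genes, which are transcribed within minutes of a growth factor or stress signal, rose almost without exception. Of 30 tested, 28 rose and 1 fell, 24 rose by more than 1.5-fold and the median was 1.24. JUN, a subunit of AP-1 (ENSG00000177606, GRCh38 chromosome 1, 58780788 to 58784327, minus strand), was at 183, 186 and 181 CPM in the untreated and 1304, 1321 and 911 CPM in the SRSF2 libraries. Its partner FOS was at 4.11, 5.09 and 4.402 CPM in the untreated and 48.1, 51.2 and 33.4 CPM in the SRSF2 libraries. In both genes the groups were far apart, and replicate 3 was the lowest SRSF2 library (log2 fold changes 2.68 and 3.28, SE 0.07 and 0.12). ARC, an activity-regulated gene best known from neurons, was at 1.45, 1.47 and 1.16 CPM in the untreated and 38.9, 44.8 and 23.3 CPM in the SRSF2 libraries (log2 fold change 4.70, SE 0.19). The transcription factor KLF4 went from 93.99 ± 5.95 to 745 ± 121 CPM, the stress factor ATF3 from 59.1 ± 2.77 to 624 ± 132 CPM and the orphan receptor NR4A2 from 8.94 ± 1.25 to 63.95 ± 8.32 CPM. ZFP36, which destabilises cytokine mRNA, rose from 63.3 ± 1.78 to 224 ± 12.2 CPM. The transcription factor SRF (-0.47), which drives many immediate-early genes, was the member that fell.

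MAPK feedback genes, which are induced by ERK signalling and dampen it, mostly rose: 17 of 21 rose and 2 fell (1 without SRSF2 replicate 1, without untreated replicate 2 or in the 6 H1650 libraries alone), 11 rose by more than 1.5-fold and the median was 0.94. The receptor kinase EPHA2, an ERK target, went from 488 ± 28.3 to 1558 ± 128 CPM, and the phosphatases DUSP4 (1.46), DUSP16 (1.33) and DUSP8 (2.14) and the inhibitor SPRY4 (1.61) rose. Among 17 EGF family genes 12 rose and 3 fell. The ligand HBEGF was at 73.6, 67.2 and 73.3 CPM in the untreated and 229.7, 222 and 185 CPM in the SRSF2 libraries, without overlap (log2 fold change 1.57, SE 0.06), and BTC (1.39) rose from low levels. The receptor ERBB2 (HER2) fell from 296 ± 4.17 to 176 ± 6.71 CPM, while its partner ERBB3 (0.69) rose. In the promoters, the AP-1 site was searched as TGANTCA. Under the same rule it is shown for the 3 eligible named genes with the largest rise that hold it.
ANKRD1, chr10:90921240-90921319, minus strand: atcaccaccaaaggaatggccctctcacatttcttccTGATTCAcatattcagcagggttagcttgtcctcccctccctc
ISG20, chr15:88638936-88639015, plus strand: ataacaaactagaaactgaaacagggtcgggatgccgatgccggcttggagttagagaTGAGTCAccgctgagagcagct
BBC3, chr19:47232738-47232817, minus strand: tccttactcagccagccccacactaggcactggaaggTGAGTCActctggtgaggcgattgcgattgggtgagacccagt
The letters occurred in 4.12% of promoters of genes tested and in 7.73% of genes risen by more than 1.5-fold. They occurred in 7.41% of the 216 matched genes that rose by 4-fold or more. Among genes fallen by more than 1.5-fold the share was 4.07%.

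Chaperones of the endoplasmic reticulum and the transcription factors of the unfolded protein response rose in part. Of 39 genes 25 rose and 7 fell, 11 and 1 by more than 1.5-fold, with a median of 0.34. XBP1, the transcription factor that IRE1 activates by splicing its mRNA in the cytosol (ENSG00000100219, GRCh38 chromosome 22, 28794555 to 28800597, minus strand), was at 113, 117 and 114 CPM in the untreated and 689, 621 and 510.0 CPM in the SRSF2 libraries. The groups were far apart and replicate 3 was the lowest SRSF2 library (log2 fold change 2.40, SE 0.06, edgeR adjusted p = 2.20e-26). These gene counts do not show whether its mRNA was spliced. HSPA5 (BiP), the main chaperone of the reticulum, was at 889.8, 896 and 906 CPM in the untreated and 2574, 2394 and 2439 CPM in the SRSF2 libraries (log2 fold change 1.46, SE 0.03). The co-chaperone DNAJB9 rose from 11.4 ± 1.29 to 86.4 ± 9.31 CPM, with PNPLA8 overlapping it on the other strand (1.28), and the secreted factor MANF from 48.3 ± 4.07 to 128 ± 4.34 CPM. Of the genes of the sensors themselves, ERN1 (IRE1) had a log2 fold change of 0.07 and EIF2AK3 (PERK) one of 0.10, neither called, and ATF6 (0.15) rose. The proteases that cut ATF6, MBTPS1 (-0.61) and MBTPS2 (-0.42), fell.

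The ER stress element, bound by ATF6 with NF-Y and by XBP1, was searched as CCAAT, any 9 bases and CCACG. Under the same rule it is shown for the 3 eligible named genes with the largest rise that hold it.
XBP1, chr22:28800573-28800652, minus strand: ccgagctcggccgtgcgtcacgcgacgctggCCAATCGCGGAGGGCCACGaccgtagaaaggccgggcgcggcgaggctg
HSPA5, chr9:125241361-125241440, minus strand: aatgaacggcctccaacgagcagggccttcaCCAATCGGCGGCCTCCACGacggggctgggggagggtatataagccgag
TRIM5, chr11:5685085-5685164, minus strand: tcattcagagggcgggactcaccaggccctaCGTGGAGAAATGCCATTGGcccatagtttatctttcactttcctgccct
Of all 11242 promoters 13 held it (0.116%), 7 of them among the 996 genes risen by more than 1.5-fold (0.703%). Among the 216 matched genes that rose by 4-fold or more 1 held it (0.463%), and 0 did among the 615 genes fallen by more than 1.5-fold. TRIM5, a restriction factor for retroviral capsids, rose from 31.2 ± 1.47 to 60.9 ± 2.63 CPM.

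ATF4 targets of the integrated stress response were split, with 14 of 29 risen and 13 fallen. PPP1R15A (GADD34), which reverses the phosphorylation of eIF2α, was at 92.6, 86.5 and 83.97 CPM in the untreated and 948, 908 and 675 CPM in the SRSF2 libraries (log2 fold change 3.27, SE 0.08). The chromatin-associated stress protein NUPR1 went from 12.6 ± 0.794 to 70.05 ± 11.9 CPM and ATF4 (0.81) itself rose, whereas the pseudokinase TRIB3 (-0.65), CHAC1 (-0.37) and the mTOR inhibitor DDIT4 (-1.05) fell. Among 20 cytosolic aminoacyl-tRNA synthetases, which load amino acids onto tRNA, 7 rose and 8 fell. WARS1, which is also an interferon-inducible gene, stood apart at 108, 108 and 104 CPM in the untreated and 606, 602 and 626 CPM in the SRSF2 libraries (log2 fold change 2.52, SE 0.04), while IARS1 (-0.64) and QARS1 (-0.69) fell. In the autophagy and lysosome list 26 of 42 genes rose and 7 fell, 10 and 1 by more than 1.5-fold. GABARAPL1, a ubiquitin-like protein of the autophagosome membrane, was at 28.2, 23.7 and 24.6 CPM in the untreated and 242, 219 and 202 CPM in the SRSF2 libraries, without overlap (log2 fold change 3.11, SE 0.06). The cargo receptors SQSTM1 (1.09) and OPTN (1.10) and MAP1LC3B (0.91) rose too.

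Cell death genes rose on the pro-apoptotic and the protective side. Of 19 BCL2 family genes 10 rose and 4 fell. PMAIP1 (NOXA), a BH3-only protein that neutralises MCL1, was at 34.6, 34.4 and 33.1 CPM in the untreated and 441, 412 and 356 CPM in the SRSF2 libraries (log2 fold change 3.56, SE 0.06), and PUMA, encoded by BBC3 (3.13), and HRK (1.84) rose with it. The protective MCL1 (1.13) rose too, and BOK (-0.78) and BMF (-0.82) fell. Of 31 death receptor, caspase and IAP genes 17 rose and 7 fell. BIRC3, an inhibitor of apoptosis induced by NF-kB, went from 35.4 ± 0.909 to 174 ± 15.8 CPM, and TNFRSF10B (0.68), a receptor of TRAIL, and CASP4 (0.71) rose. Among 30 p53 target genes 19 rose and 4 fell (2 without SRSF2 replicate 1 or in the 6 H1650 libraries alone), 10 and 1 by more than 1.5-fold, with GADD45A from 128 ± 7.62 to 907 ± 131 CPM, MDM2 (1.25) and PLK2 (1.11) as examples. CDKN1A (p21), the cell cycle inhibitor under p53, rose from 354 ± 6.62 to 541 ± 13.9 CPM.

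Mitotic genes fell together. Of 54 G2/M and mitosis genes 38 fell and 4 rose (2 on plain library totals), 9 and 0 by more than 1.5-fold, with a median of -0.33. CENPF, a kinetochore protein (ENSG00000117724, GRCh38 chromosome 1, 214603195 to 214664588, plus strand), was at 215, 233 and 195 CPM in the untreated and 88.6, 85.7 and 93.8 CPM in the SRSF2 libraries, without overlap (log2 fold change -1.26, SE 0.05, edgeR adjusted p = 2.44e-21). TOP2A, which untangles chromosomes, was at 254, 261 and 235 CPM in the untreated and 103, 99.4 and 129 CPM in the SRSF2 libraries, and NUSAP1, a spindle protein, went from 134 ± 8.06 to 65.8 ± 5.43 CPM. Recombination and Fanconi anaemia repair genes fell in 22 of 35 cases and rose in 2, but by more than 1.5-fold in 1 only, ATM (-0.90). DNA replication genes went both ways, with 13 of 46 risen and 21 fallen. The origin factors ORC6 (0.85) and CDC6 (0.62) rose, and the DNA ligase LIG1 (-0.62) fell. CCND1 (0.82), the cyclin D1 gene that acts early in the cycle, rose and CCNB2 (-0.74), a cyclin of mitosis, fell.

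Most histone genes rose. Of 29 linker and core histone genes tested 21 rose, 15 by more than 1.5-fold, and 6 fell, with a median of 1.22. The 6 that fell were the variant genes H2AJ, H2AX, H2AZ1, H2AZ2, H3-3A and MACROH2A2, named after their values were seen, while the variant gene H3-3B rose. H3-3A and H3-3B encode the same protein, the replacement histone H3.3. H3-3B was at 399, 401 and 416 CPM in the untreated and 1449, 1486 and 1238 CPM in the SRSF2 libraries, without overlap (log2 fold change 1.78, SE 0.05). H3-3A fell from 133 ± 2.53 to 84.1 ± 3.02 CPM (log2 fold change -0.66, SE 0.04). Among clustered genes H4C8 was at 6.36, 5.46 and 5.26 CPM in the untreated and 27.2, 30.3 and 19.05 CPM in the SRSF2 libraries, with replicate 3 the lowest of its group. Most clustered histone mRNA lacks a poly(A) tail, the libraries were made from polyadenylated RNA, and near-identical copies may share reads, so these values concern the polyadenylated part alone.

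Keratins, laminins and integrins, which tie epithelial cells to their matrix, went in both directions. KRT16, a keratin of wounded and stressed epithelium with near relatives that may share its reads, was at 299.6, 287 and 338 CPM in the untreated and 1525, 1525 and 1520.4 CPM in the SRSF2 libraries. KRT19, a keratin of simple epithelium, was at 1302, 1300.2 and 1311 CPM in the untreated and 599.5, 635 and 640.1 CPM in the SRSF2 libraries. The groups were apart in both, in opposite directions (log2 fold changes 2.31 and -1.06, SE 0.05 and 0.03), and KRT15 (-1.15) fell with KRT19. Of 13 keratins 8 rose and 2 fell, or 5 and 2 on plain library totals. Laminin chains of epithelial basement membranes rose, LAMB3 from 391 ± 15.6 to 1275 ± 81.9 CPM and LAMA3 from 384 ± 5.24 to 897 ± 30.3 CPM. The laminin chain LAMB1 fell from 543 ± 2.64 to 287 ± 18.2 CPM, the laminin receptor ITGA6 from 341 ± 6.52 to 163 ± 10.1 CPM and ITGB6, which activates TGF-beta, from 65.98 ± 4.03 to 28.4 ± 1.55 CPM. In all 9 of 28 integrin and laminin genes rose and 12 fell, 4 and 6 by more than 1.5-fold.

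Mesenchymal genes rose in part. Of 19 tested 10 rose and 4 fell, 5 by more than 1.5-fold. FN1 (fibronectin) was at 685, 660.3 and 672 CPM in the untreated and 1641, 1526 and 1668 CPM in the SRSF2 libraries (log2 fold change 1.26, SE 0.05). The repressor of E-cadherin SNAI1 rose from 24.8 ± 1.56 to 82.6 ± 9.59 CPM and VIM (vimentin) from 48.9 ± 1.38 to 95.8 ± 8.23 CPM, while COL5A1 (-0.39) and LOXL2 (-0.45) fell. The fibroblast markers COL1A1 and COL3A1 summed to between 21.3 and 22.8 CPM in untreated and between 20.4 and 21.6 CPM in SRSF2 libraries, ranges that overlap, and their part in these changes was not tested. Epithelial junction and protease genes went both ways, with 14 risen and 14 fallen of 35. The tight junction proteins CLDN1 (1.44) and CLDN4 (0.81) rose, and TJP3 (-1.15) fell. PLAUR, the receptor that focuses urokinase at the cell surface, was at 302, 266 and 301 CPM in the untreated and 1422, 1429.9 and 1300.2 CPM in the SRSF2 libraries, without overlap (log2 fold change 2.26, SE 0.04, edgeR adjusted p = 5.95e-30). The protease inhibitor SERPINE2 (0.85) rose with it. Their list was mixed: over the 22 matrix proteases and inhibitors tested the median was -0.04, with log2 fold changes from -0.61 to 2.26.

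Actin genes under SRF fell more often than they rose, in 21 of 37 cases against 12, although CNN1 had the largest rise of all named genes. CNN1 (calponin), an actin-binding protein of smooth muscle, was at 0.707, 0.636 and 0.364 CPM in the untreated and 26.3, 22.2 and 15.6 CPM in the SRSF2 libraries (log2 fold change 5.21, SE 0.20). The 5 smooth muscle markers with a row, CNN1 among them, summed to between 69.6 and 77.05 CPM in untreated and between 84.1 and 98.4 CPM in SRSF2 libraries. SMTN (smoothelin) made up most of this sum, at 67.7 to 75.1 CPM in untreated and 67.6 to 74.5 CPM in SRSF2 libraries, while MYH11, ACTA2 and LMOD1 stayed under 1 CPM. The abundant cytoskeletal actin ACTG1 fell from 4353 ± 286 to 2905 ± 76.7 CPM, the focal adhesion protein VCL (vinculin) from 727 ± 26.5 to 438 ± 23.98 CPM and the SRF co-activator MRTFB from 131 ± 3.101 to 69.96 ± 3.05 CPM. YAP and TEAD genes were divided as well, with 10 of 27 risen and 11 fallen. ANKRD1, a nuclear cofactor and YAP target, was at 4.24, 4.82 and 4.501 CPM in the untreated and 114, 102 and 69.7 CPM in the SRSF2 libraries, and the ectonucleotidase gene NT5E (1.48) rose. YAP1 (-0.52) itself fell. The other members of this group that were called changed by less than the stricter test requires.

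In the Notch pathway 10 of 29 genes rose and 10 fell. The target HES4 went from 23.96 ± 2.47 to 111 ± 10.2 CPM and the feedback inhibitor NRARP from 2.24 ± 0.424 to 8.605 ± 1.49 CPM, while the receptor NOTCH3 (-0.83), the ligand JAG1 (-0.58) and the co-activator MAML2 (-1.10) fell. In the Wnt pathway 10 of 36 rose and 15 fell, 4 and 7 by more than 1.5-fold. Several receptors fell, among them the co-receptor LRP5 (-0.92), the R-spondin receptor LGR4 (-0.94), ROR1 (-1.28) and FZD2 (-1.06). The receptor FZD4 rose from 4.66 ± 0.282 to 33.6 ± 3.01 CPM. PRSS23, which overlaps FZD4 on the other strand, went from 677 ± 14.5 to 1717 ± 2.05 CPM. Reads from the 7232 bases that their annotated spans share cannot be told apart without strand. TGF-beta and BMP genes were even, with 21 of 46 risen and 20 fallen. The TGF-beta target PMEPA1 (-0.98) fell. Of the proteins that bind latent TGF-beta, LTBP1 (-1.07) fell and LTBP3 (0.79) rose. The BMP pseudoreceptor BAMBI (1.39) and the target ID2 (1.38) rose.

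Insulin-like growth factor genes held some of the largest changes. IGFBP6, a binding protein that prefers IGF2, was at 5.14, 5.32 and 5.06 CPM in the untreated and 68.4, 75.7 and 70.8 CPM in the SRSF2 libraries, and GRB10, an adaptor that dampens insulin receptor signalling, was at 0.482, 0.736 and 0.596 CPM in the untreated and 11.4, 10.8 and 11.5 CPM in the SRSF2 libraries. Both rose with no overlap (log2 fold changes 3.79 and 4.21, SE 0.07 and 0.13). IGF2 rose from 0.507 ± 0.203 to 9.46 ± 0.297 CPM, its clearance receptor IGF2R fell from 403 ± 6.996 to 210.0 ± 14.4 CPM and the adaptor IRS2 (1.72) rose. Of 20 members 7 rose and 7 fell, 5 and 4 by more than 1.5-fold. Guidance genes went both ways: 15 of 34 ephrin, semaphorin and plexin genes rose and 16 fell, with PLXNA2 (1.55) and SEMA7A (1.40) higher and PLXND1 (-1.04) and NRP1 (-0.87) lower.

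Fatty acid and ceramide genes went evenly in both directions. Of 31 tested 12 rose and 12 fell, 2 and 5 by more than 1.5-fold, with a median of -0.03. Among those that fell, FASN, which builds palmitate, was at 652, 635 and 668 CPM in the untreated and 327, 314 and 310.2 CPM in the SRSF2 libraries, and SCD, which desaturates it, was at 439, 454 and 437 CPM in the untreated and 253, 235 and 232 CPM in the SRSF2 libraries. ELOVL6, which elongates it, fell from 62.9 ± 0.308 to 22.7 ± 0.8795 CPM, and SREBF1 of the cholesterol list, which transcribes these genes, from 168 ± 4.56 to 95.3 ± 7.36 CPM. The groups did not overlap in any of the 4 (log2 fold changes -1.04, -0.89, -1.47 and -0.82). SREBF1 overlaps RAI1 on the other strand, which fell as well (-0.89). FA2H, which adds a hydroxyl group to the fatty acids of ceramides, rose from 2.22 ± 0.577 to 61.9 ± 4.36 CPM (log2 fold change 4.80, SE 0.09). Among 31 cholesterol genes 10 rose, HMGCS1 (1.33) included, and 11 fell, with LSS (-0.72) lower. Of 14 polyamine genes 5 rose and 2 fell (4 on plain library totals), 3 rose by more than 1.5-fold and the median was 0.08. Among those that rose were the degrading enzymes SAT1, from 80.8 ± 1.600 to 336 ± 19.8 CPM and SMOX, from 18.05 ± 0.874 to 87.5 ± 7.103 CPM.

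NRF2 targets of the oxidative stress response fell in 18 of 28 cases and rose in 7, with a median of -0.31. The pentose phosphate enzyme TKT (-0.80) and the glutathione reductase GSR (-0.67) fell, and SQSTM1 was among those that rose. Heat shock and chaperonin genes were even (12 risen and 12 fallen of 34). HSPB8, a small chaperone of selective autophagy, rose from 50.9 ± 0.838 to 279 ± 25.1 CPM and the abundant HSPB1 (-0.59) fell. In the circadian clock list 11 of 22 genes rose and 9 fell, with the repressors NFIL3 (27.4 ± 1.13 to 75.95 ± 11.8 CPM) and NR1D2 (65.9 ± 4.51 to 174 ± 20.4 CPM) higher and TEF, an activator that competes with NFIL3 for the same sites, lower (30.2 ± 1.99 to 9.700 ± 0.196 CPM).

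Most RNA processing genes described here did not change by more than 1.5-fold. Of 24 genes of other SR proteins and their kinases 9 rose and 7 fell, 2 by more than 1.5-fold. These were the kinases CLK1, at 47.4, 51.2 and 45.9 CPM in the untreated and 122, 119.6 and 108 CPM in the SRSF2 libraries (log2 fold change 1.27, SE 0.05), and SRPK2, from 84.6 ± 1.69 to 153 ± 6.002 CPM. SRSF1 (-0.41) and SRSF6 (-0.31) fell and SRSF3 (0.25) rose. Among 42 hnRNPs and other splicing regulators 12 rose and 18 fell, 1 and 0 by more than 1.5-fold, with RBM39 (0.84) highest and ELAVL1 (-0.61) and PTBP1 (-0.56) lower. Of 44 core spliceosome proteins 26 rose and 9 fell, 1 and 1 by more than 1.5-fold, but 14 fell on plain library totals. PRPF8, the protein at the catalytic centre of the spliceosome, was at 576, 567 and 579.6 CPM in the untreated and 321, 289.7 and 277 CPM in the SRSF2 libraries and was the member that fell by more than 1.5-fold (log2 fold change -0.96, SE 0.04, edgeR adjusted p = 6.14e-21).

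Nonsense-mediated decay factors rose in 14 of 22 cases and fell in 3, or in 6 on plain library totals. UPF3B, which bridges the exon junction complex to the decay machinery, was at 13.2, 13.3 and 12.01 CPM in the untreated and 38.9, 42.4 and 35.7 CPM in the SRSF2 libraries (log2 fold change 1.60, SE 0.07), and the decapping cofactor PNRC2 (0.88) and UPF2 (0.64) rose. Host transcripts of small nucleolar RNAs, many of which this pathway degrades, rose in 14 of 22 cases and fell in 5. SNHG1 (0.95) and SNHG15 (0.91) were higher and SNHG14 (-1.10) lower, and ZFAS1 (0.63) overlaps ZNFX1, which went from 568 ± 12.3 to 1479.7 ± 89.3 CPM. NEAT1, the RNA scaffold of paraspeckles (ENSG00000245532, GRCh38 chromosome 11, 65422774 to 65445540, plus strand), was at 1016, 936 and 968 CPM in the untreated and 3394, 3228 and 2994 CPM in the SRSF2 libraries, without overlap (log2 fold change 1.72, SE 0.04), and LINC-PINT, a p53-induced RNA, rose from 13.6 ± 1.51 to 52.8 ± 3.99 CPM.

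Among larger gene families, 16 of the 79 cytosolic ribosomal protein genes rose and 18 fell (9 and 36 on plain library totals). No member passed the stricter test for more than 1.5-fold, although log2 fold changes ran from -2.57 to 0.63. Oxidative phosphorylation subunits rose in 12 and fell in 19 of 73 cases (6 and 33 on plain library totals, and 7 risen without SRSF2 replicate 2 or without untreated replicate 2), 1 and 1 by more than 1.5-fold, with SDHA (-0.69) the lowest of those named. Proteasome subunits rose in 23 of 32 cases and fell in 4 (8 on plain library totals and 2 in the 6 H1650 libraries alone), 2 and 0 by more than 1.5-fold, at a median of 0.17. The immunoproteasome subunits PSMB9 (0.83) and PSMB8 (0.62) overlap each other on opposite strands. Of 369 ZNF-named genes, most of them zinc finger repressors, 168 rose and 70 fell, 38 and 10 by more than 1.5-fold, with a median of 0.17. Of 276 solute carriers 83 rose and 96 fell, 21 and 14 by more than 1.5-fold. Of 47 TRIM genes 17 rose and 17 fell, 8 and 4 by more than 1.5-fold, and TRIM26 (1.36) and TRIM69 (1.42) were among those that rose.

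**Figure D2:**
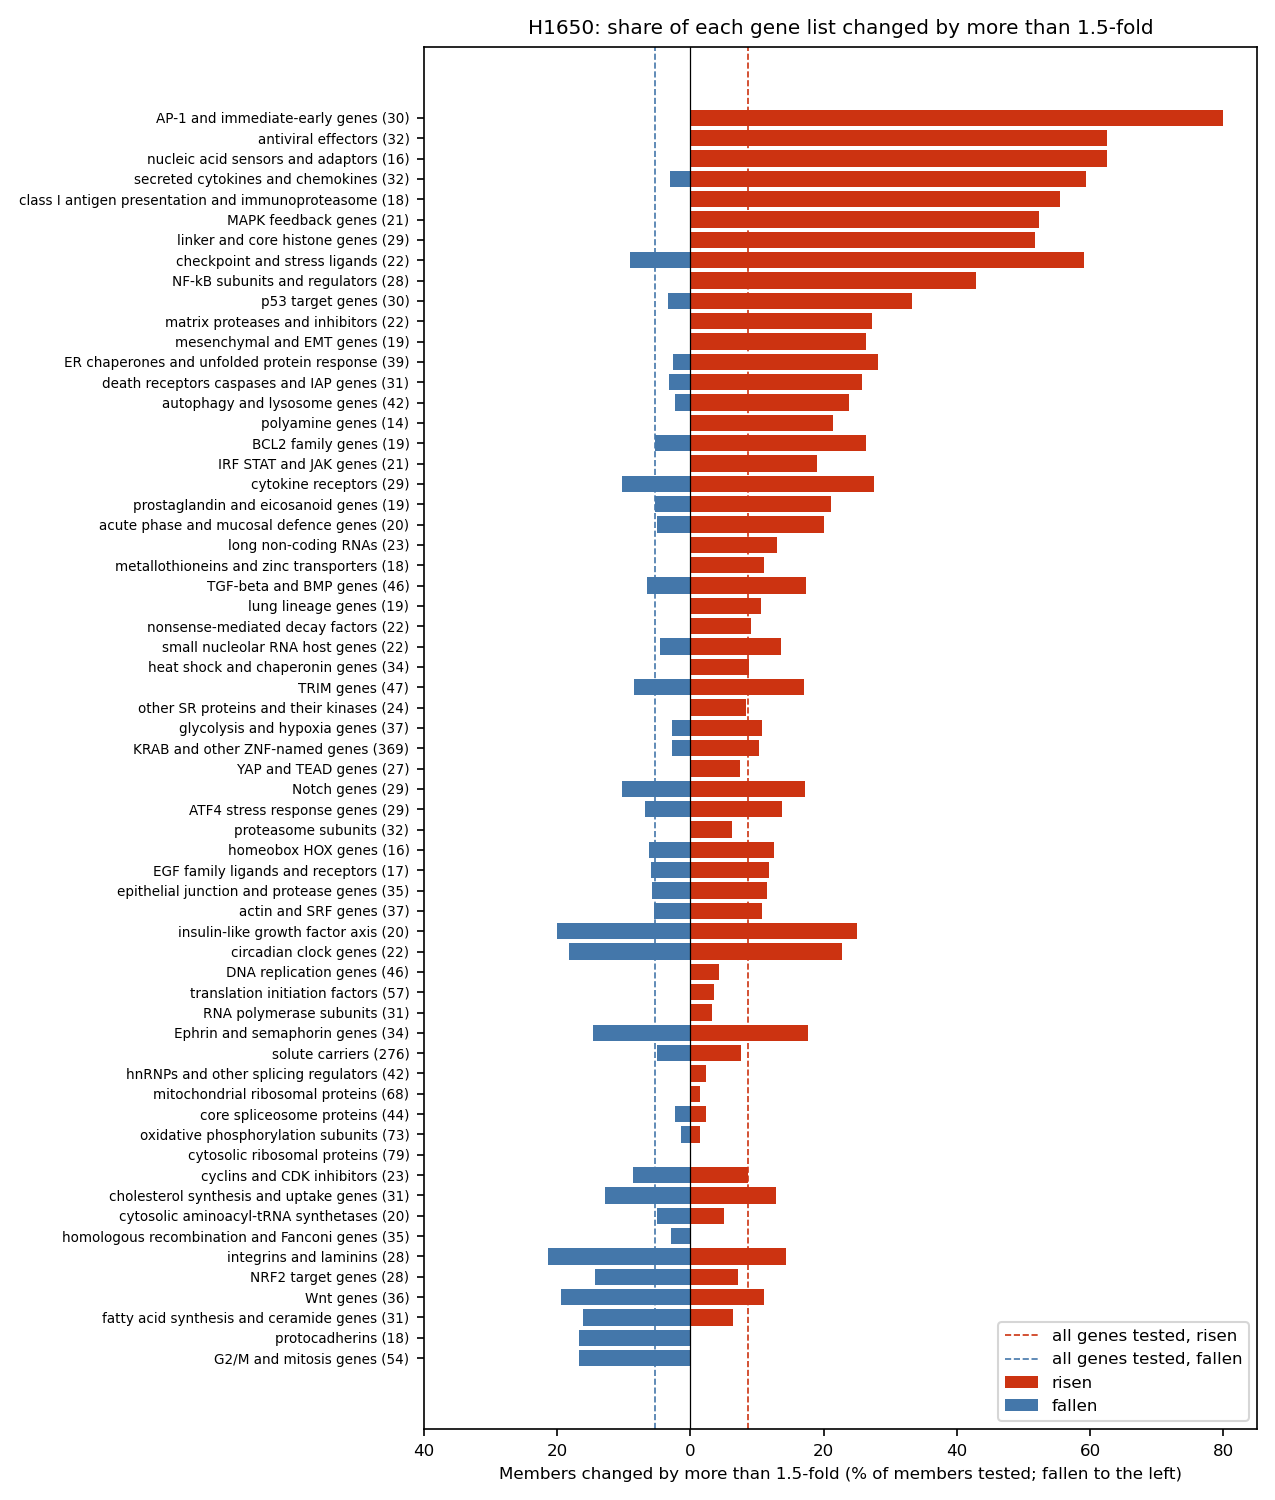
Share of the tested members of each gene list (number in parentheses) that rose (red, right) or fell (blue, left) by more than 1.5-fold in H1650, with dashed lines at the shares of all genes tested, 8.67% risen and 5.28% fallen. AP-1 and immediate-early genes, antiviral effectors and sensors reach furthest right, and G2/M and mitosis genes fell without a rise by more than 1.5-fold.

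Replicate 3 of the SRSF2 group responded less than the other 2, but not in every gene group. The response of a library was taken as its log2(CPM + 1) minus the mean of the untreated libraries. Over the 1386 genes risen by more than 1.5-fold, the slope of a library's response on the mean response of the other 2 was 1.06 for replicate 1, 1.02 for replicate 2 and 0.911 for replicate 3. Over the 845 genes that fell it was 1.05, 1.03 and 0.898. The response of replicate 3 was the smaller one in 72.7% of the risen and 75.6% of the fallen genes. These genes were called with replicate 3 included, so the values describe the libraries and carry no test. Replicate 3 also had the largest total count, 32079027, and without it 4816 genes rose and 4903 fell, 1460 and 938 of them by more than 1.5-fold.

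The shortfall differed between groups, as medians of each library's response in percent of the mean of the other 2 show over members risen by more than 1.5-fold at 5 CPM or more. Over all such genes (n = 996) replicate 3 had a median of 91.8%. Histone genes gave 78.1% (n = 13), autophagy genes 83.5% (n = 9) and AP-1 and immediate-early genes 85.3%, where 22 of 24 genes were below 100%. Fallen G2/M genes gave 81.8% (n = 9). Antiviral effectors gave 105% (n = 20), secreted cytokines 105% (n = 12) and class I genes 102% (n = 10). Among strongly risen genes the smallest shares were in the linker histones H1-3 and H1-4 and the Wnt inhibitor DKK1, at 62.9%, 69.6% and 67.3%. The largest were in the antiviral GTPase MX2, the receptor FLT4 and the NAD hydrolase CD38, at 119%, 118% and 115%. Without replicate 3, antiviral effectors had 30 risen and 1 fallen, AP-1 genes 28 and 1, and G2/M genes 4 risen and 38 fallen. This comparison was added after the libraries had been seen to differ, and the differences between groups were not tested.

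**Figure D3:**
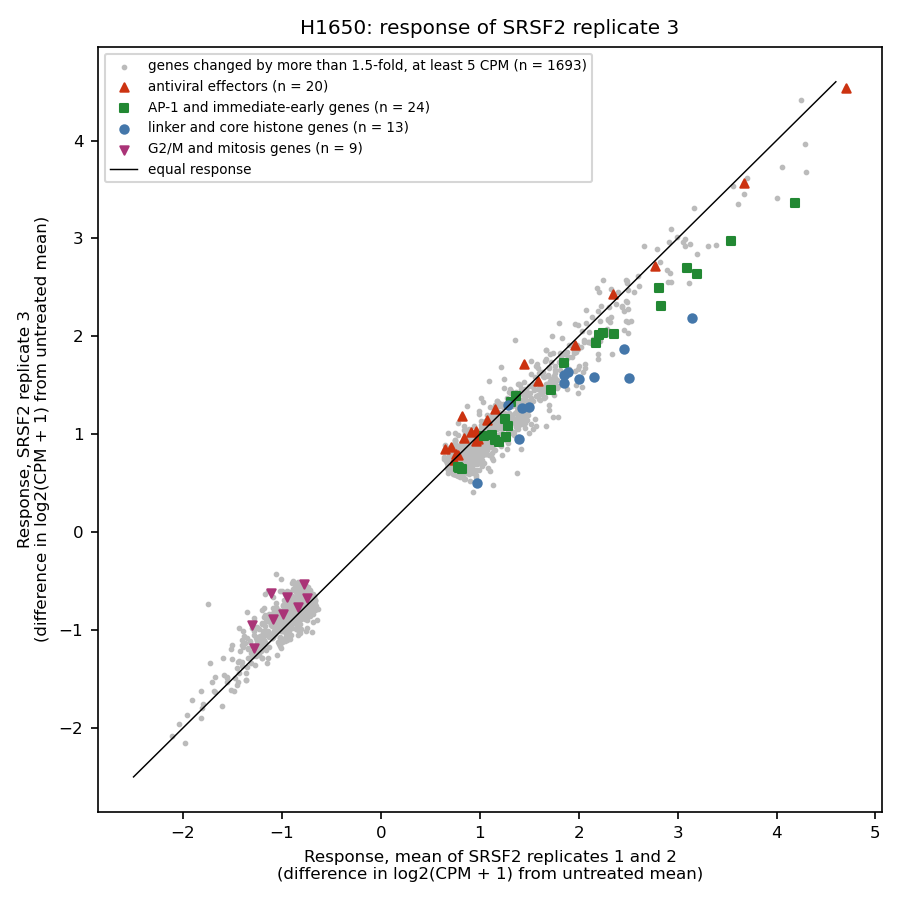
Response of SRSF2 replicate 3 against the mean response of replicates 1 and 2, both as differences in log2(CPM + 1) from the untreated mean, for genes changed by more than 1.5-fold with at least 5 CPM. Antiviral effectors (red triangles) lie along the line of equal response, while immediate-early genes (green squares) and histone genes (blue circles) mostly lie below it and fallen G2/M genes (purple) above it.

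**Figure D4:**
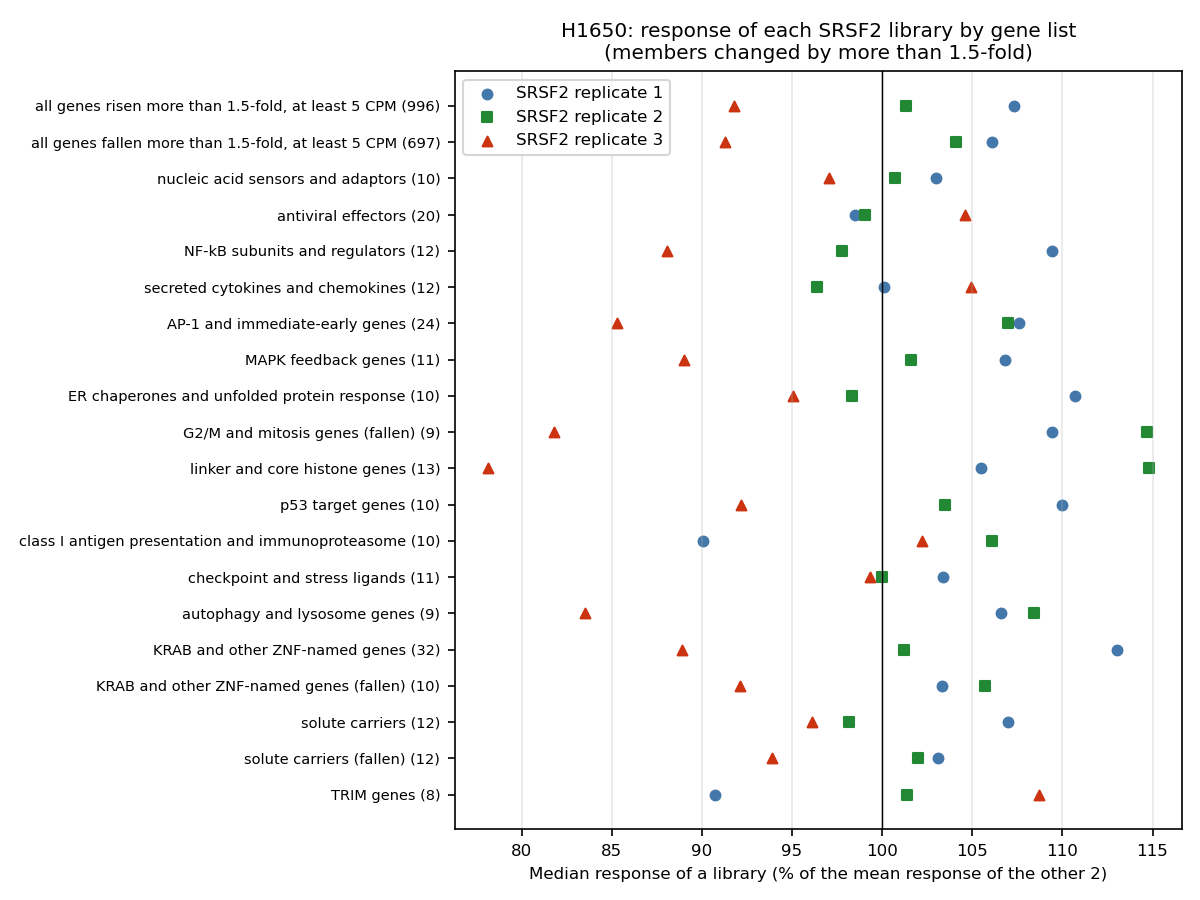
Median response of each SRSF2 library in percent of the mean response of the other 2, by gene list, over members changed by more than 1.5-fold (lists with at least 8 such members, number in parentheses, risen unless marked as fallen). Replicate 3 is the lowest library in most lists, at 78.1% for histone genes, and the highest for antiviral effectors, cytokines and TRIM genes.

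Replicate 1 of the SRSF2 group stood apart along another axis. In a principal component analysis of the 6 libraries, component 1 (67.8% of the variance) put the SRSF2 libraries at 48.5, 45.6 and 36.3 for replicates 1 to 3 and the untreated ones between -43.8 and -43.2. Component 2 (9.04%) separated replicate 1, at 30.6, from replicates 2 and 3, at -20.6 and -12.3. The difference between replicates 1 and 2 went with transcript length, while component 2 itself was not compared with length. In 10432 genes of 5 CPM or more, split into 5 equal groups by their longest annotated transcript, the median of replicate 1 minus replicate 2 ran from -0.05 in the shortest to 0.07 in the longest group on the log2(CPM + 1) scale. The median log2 fold change of SRSF2 against untreated ran the other way, from 0.07 to -0.12, and genes that fell went from 30.3% to 49.3%. In A549 the median log2 fold changes of the shortest and longest groups were -0.02 and 0.03. The part of transcript length in the results was not tested, and this split was added after the libraries had been seen. Without replicate 1, 4695 genes rose and 4759 fell, 1287 and 738 of them by more than 1.5-fold.

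**Figure D5:**
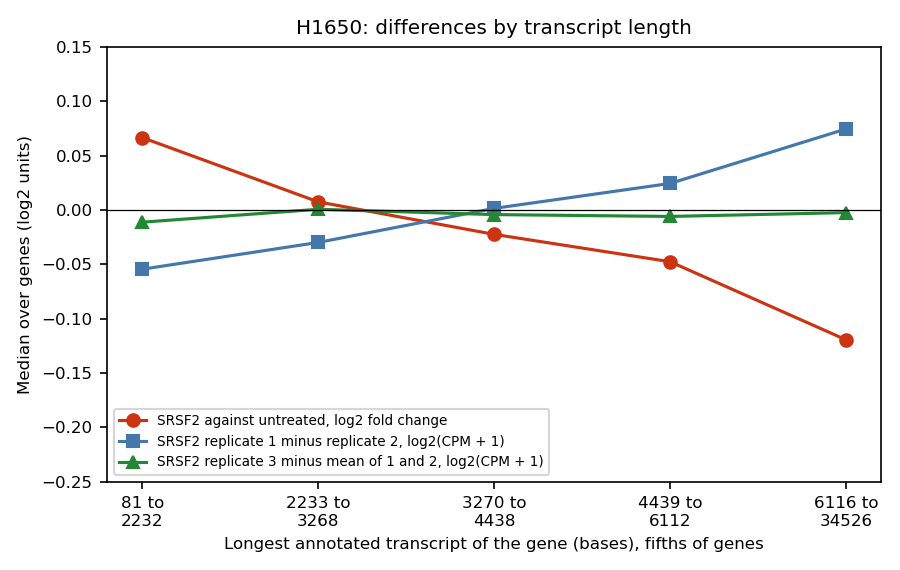
Medians over genes in 5 groups of transcript length, for the log2 fold change of SRSF2 against untreated (red), SRSF2 replicate 1 minus replicate 2 (blue) and replicate 3 minus the mean of replicates 1 and 2 (green, both on the log2(CPM + 1) scale). The fold change falls from 0.07 to -0.12 with length, replicate 1 rises against replicate 2, and replicate 3 stays near 0.

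The H1650 response differed from that of A549 in many genes. The difference between the responses, tested within the same edgeR fit, passed in 7601 of 15991 genes (47.5%), with 3758 more positive (23.5%) and 3843 more negative in H1650. ZC3HAV1 had a log2 fold change of 0.20 in A549 against 3.61 in H1650 (difference 3.42, SE 0.08, edgeR adjusted p = 1.23e-26). XBP1 had 0.11 against 2.40 (difference 2.29, SE 0.09, edgeR adjusted p = 3.76e-20) and NEAT1 0.01 against 1.72 (difference 1.71, SE 0.05, edgeR adjusted p = 2.73e-23). MX1 showed the reverse, with 4.62 in A549 from 1.61 ± 0.5001 CPM and 0.65 in H1650, where untreated cells already had 1522 ± 40.1 CPM (difference -3.97, SE 0.10, edgeR adjusted p = 1.58e-25). VTCN1, at -2.03 in H1650, had 0.84 in A549 at under 1 CPM in both groups (difference -2.87, SE 0.30, edgeR adjusted p = 6.41e-10).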

How the data were processed

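Polyadenylated RNA of 12 libraries was sequenced, 3 in each of 4 groups, and the 6 H1650 libraries are described. The authors deposited whole-number counts per gene. Per the submitters' processing notes, fastp 0.20.1, STAR 2.7.7a and featureCounts 2.0.0 were used with GRCh38, and use of strand is not given in the sources used here. The deposited table holds 16599 genes with at least 27 counts each over all libraries. For 16076 IDs a table of gene names gave the symbol, for 20 GENCODE 29 did, and 503 had none. A second table, of FPKM values, was not used.

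The test was edgeR 4.0.16 under R 4.3.3 (TMM scaling, default filter on low counts leaving 15991 genes, quasi-likelihood fit of all 12 libraries with 1 mean per group, Benjamini-Hochberg adjustment, threshold 0.05). The fit shares 1 spread over the groups, although edgeR's common coefficient of variation was larger in H1650 SRSF2 (0.0560) than in untreated H1650 libraries (0.0338). A second rule tested changes against 1.5-fold. Simulated counts were fitted over 15734 genes for the H1650 comparison, with 50 genes changed at each fold and 1 spread per gene in all groups. Of genes changed 1.25-, 1.5-, 2- and 4-fold, 66%, 80%, 98% and 100% were recovered, and 7.53% of calls were false. Under the second rule 0%, 0%, 90% and 100% were recovered. In the data 62.3% of genes were called and the spread differed between groups, so these shares may not carry over.

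The members and gene lists were chosen with earlier results of these data known. Named genes are the 12 largest rises and falls, list members with the smallest p or large changes, the largest differences from A549, and the 8 lowest and highest replicate 3 shares. Members that went against their list, overlap partners and RELA, RELB, REL, NFKB2, STING1, TLR3, CXCL1, CXCL3, IFI6, SRSF3, ATF6 and H3-3A were named after their values were seen. Alternatives were the 6 libraries alone, DESeq2 1.42.0, limma 3.58.1 voom, other scalings and filters, a replicate block and leaving out each library.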

Additional observations from a re-analysis of the deposited data

Results flagged for a closer look

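The response to SRSF2 differed between H1650 and A549 in 7601 genes by edgeR's test of the difference itself. The genes below come from the 8 largest such differences in each direction among genes called in H1650 with at least 5 CPM in the higher H1650 group, and have a symbol and more than 3 summed counts in every group. Genes under that minimum are left out, such as IRF7, which differed by -3.19 at 1.10 and 0.524 CPM in the 2 H1650 groups. Values are log2 fold changes in H1650 minus those in A549.

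In the antiviral group, MX1 differed by -3.97 (SE 0.10, edgeR adjusted p = 1.58e-25) and XAF1, an interferon-induced pro-apoptotic gene, by -3.59 (SE 0.37, edgeR adjusted p = 5.17e-10). XAF1 went from 180.5 to 307 CPM in H1650 and from 0.105 to 2.23 CPM in A549, where the untreated level rests on few counts. ZC3HAV1 went the other way, by 3.42 (SE 0.08, edgeR adjusted p = 1.23e-26), from 147 to 169 CPM in A549.

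Among growth factor genes IGF2 differed by 4.23 (SE 0.28), GRB10 by 3.98 (SE 0.14) and IGFBP6 by 3.73 (SE 0.08). GRB10 and IGFBP6 were at 77.2 and 76.3 CPM in untreated A549 cells, against 0.605 and 5.18 CPM in untreated H1650 cells. FA2H differed by 4.15 (SE 0.12), with 43.4 CPM in untreated A549 and 2.22 CPM in untreated H1650 cells. PRR15 differed by 3.71 (SE 0.16) and the matricellular gene CCN3 by 3.62 (SE 0.30). PERM1 differed by -3.64 (SE 0.31), VTCN1 by -2.87 (SE 0.30) and ST8SIA1, a ganglioside synthase, by -2.60 (SE 0.42). Both VTCN1 and ST8SIA1 stayed under 1 CPM in A549. The largest edgeR adjusted p among these genes was 3.04e-06, for ST8SIA1.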

How the results depend on the processing

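The counts of called genes stayed within 1.5 times the reported ones under every alternative run, from 9297 to 10063 genes called and from 1651 to 2398 changed by more than 1.5-fold. Leaving out 1 library in turn gave 9297 to 9719 called genes, with 4574 to 4816 higher and 4723 to 4903 lower. It gave 2017 to 2398 changed by more than 1.5-fold, and 7149 to 7654 for the difference from A549. The 6 H1650 libraries alone gave 1343 risen and 764 fallen by more than 1.5-fold, and DESeq2 1064 and 587. Plain library totals moved the median of all genes to -0.08 on the log2 scale. The labels number the replicates alike in both groups, but deviations of same-numbered libraries correlated at -0.003, 0.016 and 0.027, and no pairing was assumed. With a replicate block 4934 genes rose and 5002 fell, 1399 and 854 of them by more than 1.5-fold. Over 425 genes named by the rule and their alternatives, 5938 of 5948 values kept their side of the threshold and 0 reversed. Direction was compared only where the main fit or the alternative called the gene. Genes added outside that rule, such as RELA and CCL2, were not among the 425. IL10RB, whose groups overlap, lost its call in 6 alternatives. Of 1820 list counts 35 moved by over 1.5 times, and where plain totals or a left-out library did so for a count given above, that value stands beside it. Genes under about 0.1 CPM rest on 3 counts or fewer.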
